A study of Drosophila melanogaster with 6 samples.

Results

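JIL-1 is a histone kinase of Drosophila that sits on interphase chromatin and phosphorylates the tail of histone H3. H3K27acS28ph is a doubly modified form of that tail, with acetyl on a lysine and phosphate on the serine beside it. The comparison below concerns all 12295 JIL-1 peaks and all 3223 H3K27acS28ph peaks on the chromosome arms 2L, 2R, 3L, 3R and X and on chromosome 4, which together are 15518 of the 49322 peaks in the 6 lists of the series. These are the peaks of the libraries labelled JIL-1 and H3K27acS28ph that lie on scaffolds other than the heterochromatin, U and Uextra collections. No score, width or overlap was used to choose among the deposited peaks. The comparison itself was chosen with earlier results of these data known. Chromatin immunoprecipitation and sequencing (ChIP-seq) was done in Kc167, an established line derived from female late embryos. The labels name no treatment or genotype difference: all 6 libraries came from this line, grown in serum-free medium and fixed with 1% formaldehyde for 10 min, and they differ, as labelled, in the antibody: JIL-1, H3K27acS28ph, H3K4me3, H3K4me1, H3K27ac or H3K9acS10ph. There was 1 library per antibody, so nothing here was tested between samples. The 95% intervals describe counting error within these lists, treat neighbouring peaks as independent, and do not cover variation between chromatin preparations.

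The lysine concerned can carry either a repressive methyl group placed by the Polycomb system or an acetyl group, which marks active promoters and enhancers. Phosphorylation of the adjacent serine is known from mammalian cells as a modification that accompanies gene activation and can displace Polycomb proteins. JIL-1 is best known for phosphorylating another serine of the tail, the one that is modified in H3K9acS10ph, and for its role in keeping euchromatin open. H3K4me3 marks active promoters, and H3K4me1 marks enhancers and the flanks of promoters. The comparison therefore places an enzyme beside a mark that contains a phosphoserine, and asks how far their called peaks coincide and in which surroundings.

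The lists were of unequal length and of unequal peak shape. JIL-1 had 3.81 to 4.10 peaks for each H3K27acS28ph peak on 2L, 2R, 3L, 3R and chromosome 4, and 3.54 on X. JIL-1 peaks had a median width of 1076 bp (quartiles 808 and 1588) and covered 16.6 Mb, or 13.8% of the arm length of 120.3 Mb. H3K27acS28ph peaks had a median width of 1452 bp (quartiles 1089 and 2033) and covered 5.77 Mb, or 4.80% of the arms. The authors' score, which was used only to rank peaks within a list, had a median of 163 for JIL-1 and 141 for H3K27acS28ph. Score and width went together within each list, with a Spearman rho across peaks of 0.76 for JIL-1 and 0.62 for H3K27acS28ph. The files give no read depth.

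The lists as deposited overlapped by unequal shares. An H3K27acS28ph peak was found at 2715 of the 12295 JIL-1 peaks, a share of 22.1% (95% Wilson interval 21.4 to 22.8). A JIL-1 peak was found at 2493 of the 3223 H3K27acS28ph peaks, a share of 77.4% (75.9 to 78.8). The remaining 9580 JIL-1 and 730 H3K27acS28ph peaks had no partner. These shares moved when the JIL-1 list was cut by score, a step that changes its length and its mix of scores together. Against only its 3223 peaks of highest score, as many as H3K27acS28ph has, they were 37.8% for JIL-1 (36.2 to 39.5) and 42.2% for H3K27acS28ph (40.5 to 43.9). Counted in bases, the 3.30 Mb that both lists covered made up 19.8% of the JIL-1 sequence and 57.1% of the H3K27acS28ph sequence. JIL-1 covered a like share of the H3K4me3 sequence (57.4%), somewhat less of the H3K27ac (52.5%) and H3K9acS10ph sequence (50.9%), and 36.6% of the H3K4me1 sequence. H3K27acS28ph covered 25.4% of the H3K4me3 sequence, 23.4% of H3K27ac, 22.0% of H3K9acS10ph and 13.0% of H3K4me1.

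Where the peaks met, they shared most of their length. The 2977 overlapping pairs shared a median of 1019 bp (quartiles 689 and 1422). Partly overlapping pairs made up 62.2% of them, the H3K27acS28ph peak lay wholly inside the JIL-1 peak in 23.3%, and the JIL-1 peak lay wholly inside the H3K27acS28ph peak in 14.5%. A shared JIL-1 peak had a median of 67.0% of its length inside H3K27acS28ph, and a shared H3K27acS28ph peak had a median of 86.4% inside JIL-1. Few calls rested on the edge of the rule that 1 shared base counts as overlap. The best overlap was under 100 bp for 96 JIL-1 and 39 H3K27acS28ph peaks, and the nearest partner lay under 100 bp away, sharing no base, for 86 JIL-1 and 44 H3K27acS28ph peaks. Just inside it, the smallest best overlaps were 1, 1 and 2 bp for JIL-1 and 2, 2 and 9 bp for H3K27acS28ph. Just outside it, the smallest gaps were 0, 2 and 5 bp for JIL-1 and 0, 5 and 7 bp for H3K27acS28ph.

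Distances between midpoints, which take no account of width, were likewise unequal in the lists as deposited. From a JIL-1 midpoint the nearest H3K27acS28ph midpoint lay a median of 7725 bp away (95% interval 7423 to 8069, quartiles 1863 and 26153), and 17.8% of JIL-1 midpoints had one within 1000 bp. From an H3K27acS28ph midpoint the nearest JIL-1 midpoint lay a median of 597 bp away (571 to 636, quartiles 257 and 1439). It lay within 250 bp for 24.5% of H3K27acS28ph peaks, within 1000 bp for 65.4% and within 5000 bp for 89.5%. With the JIL-1 list shortened to 3223 peaks the medians were 4771 bp from JIL-1 (4070 to 5227) and 3135 bp from H3K27acS28ph (2855 to 3394). Set against the full kinase list, the median distance was 606 bp from H3K27ac (577 to 632), 644 bp from H3K9acS10ph (620 to 668), 666 bp from H3K4me3 (642 to 692) and 1126 bp from H3K4me1 (1094 to 1154). The H3K27acS28ph interval overlapped those of H3K27ac and H3K9acS10ph and lay below those of H3K4me3 and H3K4me1. Read the other way, H3K27acS28ph midpoints lay closer to H3K4me3, the promoter mark, at a median of 438 bp (412 to 461), than to JIL-1.

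**Figure D1:**
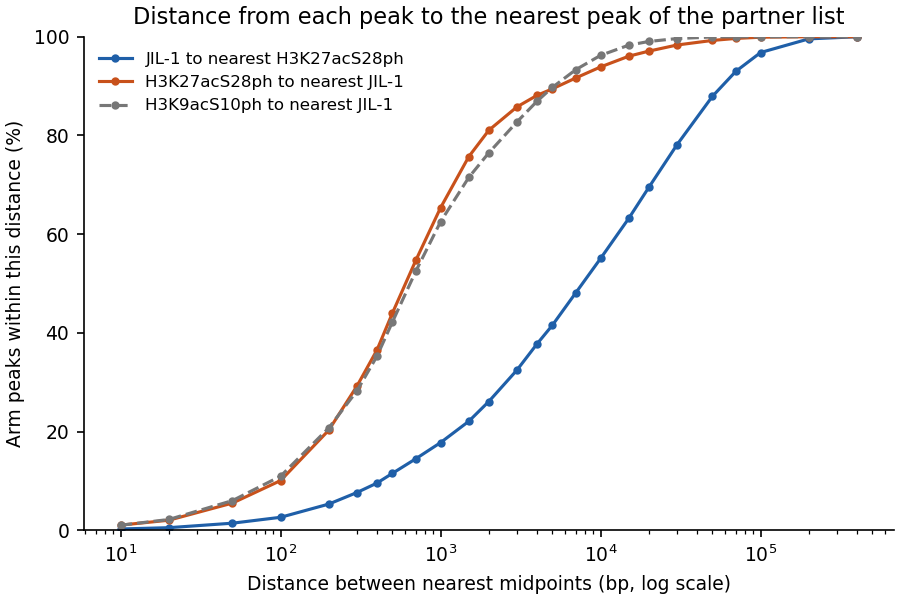
Cumulative share of arm peaks (y axis, percent) whose nearest partner midpoint lies within a given distance (x axis, bp, log scale), for JIL-1 to H3K27acS28ph, H3K27acS28ph to JIL-1 and, for comparison, H3K9acS10ph to JIL-1. Within 1000 bp the curves stand at 17.8% for JIL-1 and at 65.4% for H3K27acS28ph, with H3K9acS10ph at 62.5%.

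JIL-1 did not sit to a fixed side of the mark in genome coordinates. Genes were not used, so a side relative to the direction of transcription was not examined. In 1676 pairs each peak overlapped no other partner, and in these the JIL-1 midpoint lay at the lower coordinate in 840 and at the higher coordinate in 836, with a median distance of 340 bp (quartiles 151 and 627). The JIL-1 peak was the narrower of the pair in 38.2%, and the median widths were 1716 bp for JIL-1 and 1417 bp for H3K27acS28ph. Over all overlaps, 1981 JIL-1 midpoints fell inside an H3K27acS28ph peak, and 59.4% of them (57.2 to 61.5) fell in its central 50%. Scores and widths of these single pairs were only weakly related: Spearman's rho over the 1676 pairs was 0.19 for scores and 0.28 for widths, and both rest on the same cells and on peak calls in which score and width go together.

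Most contacts were single. Of the H3K27acS28ph peaks, 730 (22.6%) had no JIL-1 peak, 2036 (63.2%) had 1, 430 (13.3%) had 2 and 27 (0.84%) had 3, a mean of 0.92 and a maximum of 3. Of the JIL-1 peaks, 2473 (20.1%) met 1 H3K27acS28ph peak, 224 (1.82%) met 2, 16 met 3 and 2 met 4. The mean number of kinase peaks was 1.32 per H3K27ac peak, 1.07 per H3K4me1 peak and 1.04 per H3K9acS10ph peak, whose median widths were 2522, 1809 and 2228 bp, and 0.80 per H3K4me3 peak, with a median width of 1243 bp. H3K27acS28ph peaks with 3 JIL-1 peaks had a median width of 3101 bp and a median score of 610. Those with 2 had medians of 1949 bp and 228, those with 1 had 1402 bp and 140, and those with none had 1333 bp and 106. Along the kinase list the 18 JIL-1 peaks that met 3 or 4 H3K27acS28ph peaks had a median width of 5929 bp, against 1006 bp for JIL-1 peaks that met none.

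The named regions with the most contacts overlapped every mark in the series. Positions are 1-based on scaffolds named as in release 5 of the fly genome. Among H3K27acS28ph peaks with 3 JIL-1 peaks the highest-scoring lay on 2R from 17030021 to 17035572 (5552 bp, score 3100), on 2L from 13394048 to 13399002 (4955 bp, score 2108) and on X from 14960816 to 14965447 (4632 bp, score 1319). In the 2L region the kinase was called as a peak of 1130 bp with score 402, another of 1780 bp with score 261 and a further one of 1050 bp with score 112. In the X region the kinase midpoints lay at -3082, -59 and 2546 bp from the midpoint of the mark, in genome coordinates. The JIL-1 peaks that met 4 H3K27acS28ph peaks lay on 3L from 1329746 to 1338745 (9000 bp, score 1740) and on 2L from 19578311 to 19582898 (4588 bp, score 1099). Next came a JIL-1 peak that met 3, on 2L from 5976962 to 5985485 (8524 bp, score 3100). All 6 overlapped H3K4me3, H3K4me1, H3K27ac and H3K9acS10ph.

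Pairs were also ranked by the scores of both members. Among the 2249 pairs in which each peak was the best-scoring partner of the other, the lowest sum of score ranks belonged to an H3K27acS28ph peak on 2L from 7825627 to 7827721 (score 3060, rank 7) inside a JIL-1 peak from 7825324 to 7829486 (score 3100, rank 20). The next were H3K27acS28ph peaks on X from 19414227 to 19417095 (rank 19) and on 3L from 23250856 to 23254050 (rank 51), each with a JIL-1 peak of score 3100, where many scores are tied at rank 20. All 3 pairs overlapped the other 4 marks.

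How often a peak had its partner depended on its rank within its own list, and in a different way for the kinase and for the mark. For JIL-1, the share with H3K27acS28ph was 6.26% in the lowest decile of score (5.04 to 7.75), 17.9% in the fifth and 39.3% in the ninth (36.6 to 42.0). The highest decile stood at 38.1% (35.4 to 40.8), an interval that overlapped that of the ninth. By width the share climbed throughout, with 4.07% in the narrowest decile (3.10 to 5.32), 16.5% in the fifth, 41.5% in the ninth and 58.3% in the widest (55.6 to 61.1). The widest JIL-1 decile, at 2354 bp and more, held 717 of the 2715 kinase peaks with the mark.

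For H3K27acS28ph, the share with JIL-1 was high at every score. It was 64.4% in the lowest decile of score (59.03 to 69.4), 78.3% in the fifth and 85.1% in the highest (80.8 to 88.6). By width it was highest in the eighth decile. The narrowest decile had JIL-1 in 63.8% of cases (58.4 to 68.8), the eighth in 89.4% (85.6 to 92.3) and the widest, at 2831 bp and more, in 64.3% (58.9 to 69.3). The difference between highest and lowest decile was 54.3 percentage points for JIL-1 widths (Newcombe interval 51.2 to 57.2) and 0.51 points for H3K27acS28ph widths (-6.87 to 7.88). It was 31.8 points for JIL-1 scores (28.8 to 34.8) and 20.7 points for H3K27acS28ph scores (14.1 to 27.1). With every peak replaced by 1000 bp around its midpoint, the same differences were 38.7 points for JIL-1 widths and -18.5 points for H3K27acS28ph widths (-25.8 to -10.8), and 22.4 and 11.04 points for the scores. When the kinase list was cut to 3223 peaks by score, the JIL-1 score difference was -5.48 points (-12.6 to 1.77) and the H3K27acS28ph width difference was 15.0 points (7.54 to 22.2). The cut list keeps only the highest JIL-1 scores, so its score deciles cover a narrower range than those of the full list. Over all scaffolds the H3K27acS28ph differences were 32.4 points for width (27.04 to 37.4) and -14.0 points for score (-19.3 to -8.53). The H3K27acS28ph width difference thus had no fixed sign across these alternatives.

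**Figure D2:**
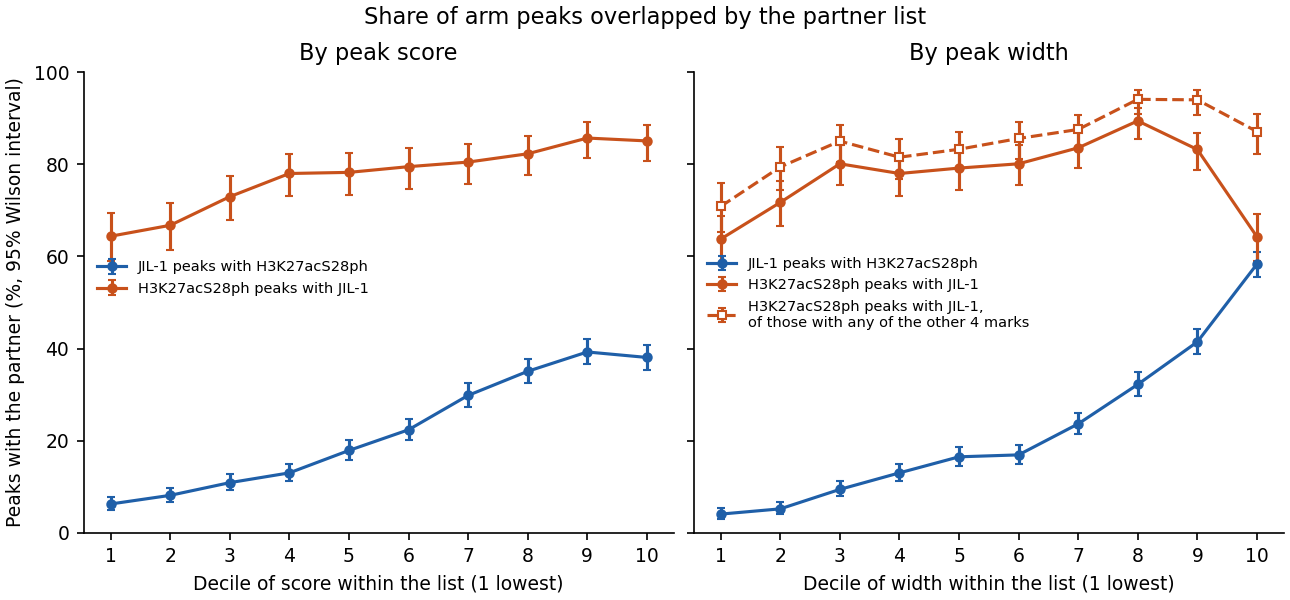
Share of arm peaks overlapped by the partner list (y axis, percent, bars are 95% Wilson intervals) in each decile of score (left) and of width (right) within the list. JIL-1 climbs to 58.3% in its widest decile, whereas H3K27acS28ph stands at 89.4% in its eighth decile and at 64.3% in its widest decile, or at 87.1% there when only peaks with any of the other 4 marks are counted (dashed).

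Splitting each list into 3 classes of equal size by score and 3 by width, and crossing them, separated score from width in part. Among the narrowest JIL-1 peaks the share with H3K27acS28ph stayed low at every score, at 6.47%, 8.17% and 6.99% from the lowest to the highest score class (3136, 820 and 143 peaks). Among the widest JIL-1 peaks it was 16.3%, 31.9% and 48.3% (166, 1197 and 2735 peaks). A narrow kinase peak thus seldom had the mark, however high its score. H3K27acS28ph peaks behaved otherwise. Among the narrowest of them the share with JIL-1 was 67.6%, 78.2% and 94.4% from the lowest to the highest score class (679, 325 and 71 peaks), and among the widest it was 62.5%, 80.7% and 81.0% (96, 295 and 683 peaks). In the highest score class, widest minus narrowest came to 41.3 points for JIL-1 (35.6 to 44.9) and to -13.4 points for H3K27acS28ph (-18.0 to -4.96). With only peaks that had any of the other 4 marks, the H3K27acS28ph value was -5.53 points (-8.82 to 2.00), an interval that holds 0.

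**Figure D3:**
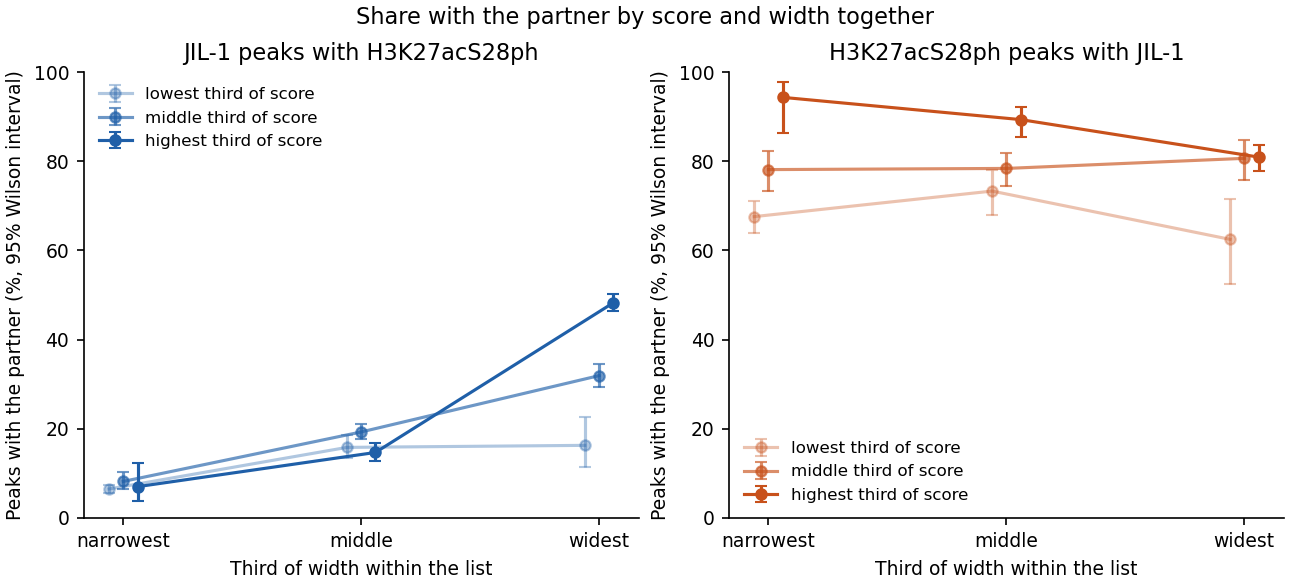
Share with the partner (y axis, percent, bars are 95% Wilson intervals) for peaks in the narrowest, middle and widest class of their list (x axis), drawn separately for the lowest, middle and highest score class. For JIL-1 the lines lie farthest apart among the widest peaks (16.3% to 48.3%), and for H3K27acS28ph they lie farthest apart among the narrowest (67.6% to 94.4%).

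Shared peaks and peaks of a single list lay in very different surroundings. JIL-1 peaks with H3K27acS28ph overlapped H3K4me3 in 90.6% of cases (89.4 to 91.6), against 41.0% of those without it (40.0 to 42.0), a difference of 49.6 points (48.1 to 51.0). The shares were 93.8% and 56.5% for H3K4me1 (37.4 points, 36.0 to 38.7), 93.9% and 42.5% for H3K27ac (51.4 points, 49.996 to 52.7) and 94.4% and 44.7% for H3K9acS10ph (49.6 points, 48.3 to 50.9). H3K4me1 was the mark that kinase peaks without H3K27acS28ph had most often, as it was over all JIL-1 peaks (64.7%). It also covered more of the arms (21.9%) than any other of these marks.

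H3K27acS28ph peaks divided by JIL-1 in nearly the same proportions for H3K4me3 and H3K27ac. Without the partner, H3K4me1 was less frequent than in the JIL-1 list (44.9% against 56.5%) and H3K9acS10ph more frequent (49.5% against 44.7%). Those with JIL-1 overlapped H3K4me3 in 91.1% of cases (89.9 to 92.2), against 40.4% of those without it (36.9 to 44.0), a difference of 50.7 points (46.9 to 54.3). The shares were 93.5% and 44.9% for H3K4me1 (48.5 points, 44.8 to 52.2), 93.9% and 41.6% for H3K27ac (52.3 points, 48.6 to 55.9) and 94.4% and 49.5% for H3K9acS10ph (45.0 points, 41.2 to 48.7). H3K27acS28ph peaks without JIL-1 had H3K9acS10ph, the other phosphoacetylated form, more often than H3K27ac or H3K4me3. Its interval (45.8 to 53.1) lay above those of both (38.1 to 45.3 and 36.9 to 44.0) and overlapped that of H3K4me1 (41.4 to 48.6). These intervals describe the same peaks and ignore that pairing. The marks also differed in extent. H3K9acS10ph covered 16.4% of the arms, H3K27ac 15.4%, H3K4me3 12.4% and H3K4me1 21.9%, and the shares were not set against these values. H3K9acS10ph was also the most frequent other mark at H3K27acS28ph peaks with JIL-1 and over the whole list (84.2%).

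**Figure D4:**
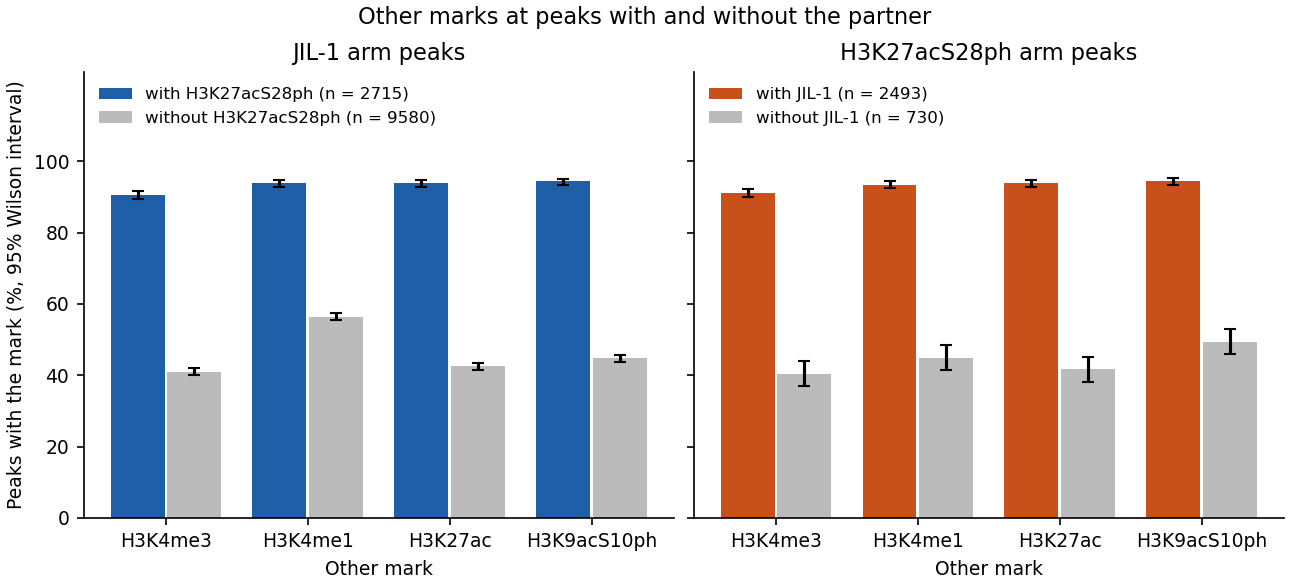
Share of JIL-1 arm peaks (left) and H3K27acS28ph arm peaks (right) that overlap each of the other 4 marks (y axis, percent, bars start at 0, error bars are 95% Wilson intervals), for peaks with and without the partner. Peaks with the partner stand between 90.6% and 94.4% for all 4 marks, and peaks without it between 40.4% and 56.5%.

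Width moves with these contrasts, since shared JIL-1 peaks had a median width of 1642 bp against 1006 bp for the others, so they were also taken within 5 classes of equal size by width. The differences were positive in all 5 classes for all 4 marks in both lists. Among JIL-1 peaks they shrank with width, for H3K9acS10ph to 17.3 points in the widest class (94.9% and 77.7%), against 71.2 points in the narrowest (88.6% and 17.4%), and for H3K4me3 to 15.8 points, against 53.0 points. For H3K27acS28ph the differences were larger in the widest class than in the narrowest. Its H3K4me3 difference was 82.1 points in the widest class (94.5% and 12.4%), against 44.7 points in the narrowest (85.6% and 40.9%), and its H3K9acS10ph difference was 72.9 points (89.5% and 16.6%), against 37.2 points (92.4% and 55.3%).

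The marks accumulated together at shared sites. All 4 of the other marks were present at 2220 of the 2715 JIL-1 peaks with H3K27acS28ph (81.8%), against 2241 of the 9580 without it (23.4%). None of the 4 was present at 24 of them (0.88%), against 2907 of the others (30.3%). Read as a series, JIL-1 peaks had H3K27acS28ph in 0.82% of cases where none of the other 4 marks was called, 2.41% with 1, 6.65% with 2, 18.5% with 3 and 49.8% with all 4 (48.3 to 51.2). Between the ends of this series the median JIL-1 width rose from 743 to 1567 bp and the median score from 79.6 to 359. The number of marks was thus not separated from width and score here. H3K27acS28ph peaks had JIL-1 in 7.62% of cases with none of the 4 marks, 32.4% with 1, 52.0% with 2, 75.2% with 3 and 91.5% with all 4 (90.3 to 92.6). Their median width was 1718 bp with none and 1484 bp with all 4, and their median score was 117 and 160. The next most frequent combination at shared JIL-1 peaks lacked only H3K4me3, the promoter mark, with 156 peaks (5.75%).

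Kinase peaks that lacked any given mark seldom had H3K27acS28ph. JIL-1 peaks with H3K9acS10ph had H3K27acS28ph in 37.4% of cases (36.3 to 38.6), against 2.81% of those without it (2.40 to 3.28). For H3K4me3 the shares were 38.5% and 4.33%, for H3K27ac 38.5% and 2.93%, and for H3K4me1 32.0% and 3.85%. JIL-1 peaks with both H3K4me3 and H3K9acS10ph had H3K27acS28ph in 43.8% of cases (42.5 to 45.2). The share was 9.03% with H3K4me3 and not H3K9acS10ph (7.38 to 10.99), 13.3% with H3K9acS10ph and not H3K4me3 (11.6 to 15.1) and 1.45% with neither (1.14 to 1.85). At JIL-1 peaks with H3K4me1 and H3K27ac but not H3K4me3, a combination often found at enhancers, it was 12.2% (10.7 to 14.0). At H3K27acS28ph peaks with this combination, JIL-1 was present at 154 of 223 (69.1%, 62.7 to 74.8). Each share lay below that of its whole list, 22.1% for JIL-1 and 77.4% for H3K27acS28ph.

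Within the 4461 JIL-1 peaks that had all 4 other marks, the partner share still went with rank. H3K27acS28ph was present at 67.9% of the widest of 5 classes (64.8 to 70.9), against 38.3% of the narrowest (35.2 to 41.5), and at 59.1% of the highest-scoring class (55.8 to 62.3), against 39.6% of the lowest (36.5 to 42.9). Among the 2227 H3K27acS28ph peaks with all 4 marks, JIL-1 was present at 97.1% of the widest class (95.1 to 98.3), against 85.2% of the narrowest (81.6 to 88.2), and at 98.0% of the highest-scoring class (96.2 to 98.9), against 87.9% of the lowest (84.5 to 90.6). Among these the widest class thus had the highest share, unlike in the whole list. JIL-1 peaks with all 4 marks and H3K27acS28ph had a median width of 1756 bp and a median score of 428, and the 2241 without H3K27acS28ph had 1396 bp and 296. The highest-scoring JIL-1 peaks with all 4 marks and no H3K27acS28ph lay on X from 5801642 to 5802703 (score 3223, 3709 bp from the nearest H3K27acS28ph peak), on 2L from 5799156 to 5800877 (score 3166, 384 bp away) and on 3R from 16607261 to 16610436 (score 3135, 36287 bp away).

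Around the midpoints of H3K27acS28ph peaks the other lists differed in their breadth. At peaks with JIL-1, 84.9% of midpoints were covered by JIL-1, 86.1% by H3K4me3, 92.5% by H3K27ac and 93.7% by H3K9acS10ph. At 1000 bp to the right of the midpoint, JIL-1 and H3K4me3 were alike, with coverages of 56.9% and 57.0%, while H3K27ac stood at 77.9% and H3K9acS10ph at 75.3%. H3K4me1 had the reverse profile, with 66.0% at the midpoint and 74.97% at 1000 bp to the right and 76.1% at 1000 bp to the left, so shared sites had an H3K4me1 dip at their centre. H3K27acS28ph peaks without JIL-1 had lower coverage by every list, with 47.4% at the midpoint for H3K9acS10ph, 39.6% for H3K27ac, 37.0% for H3K4me1 and 36.2% for H3K4me3. At these the nearest JIL-1 midpoint lay a median of 4513 bp away, and at 5000 bp to the right JIL-1 covered 17.5% of positions, against 33.9% around peaks with JIL-1 and 13.8% of the arms as a whole.

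**Figure D5:**
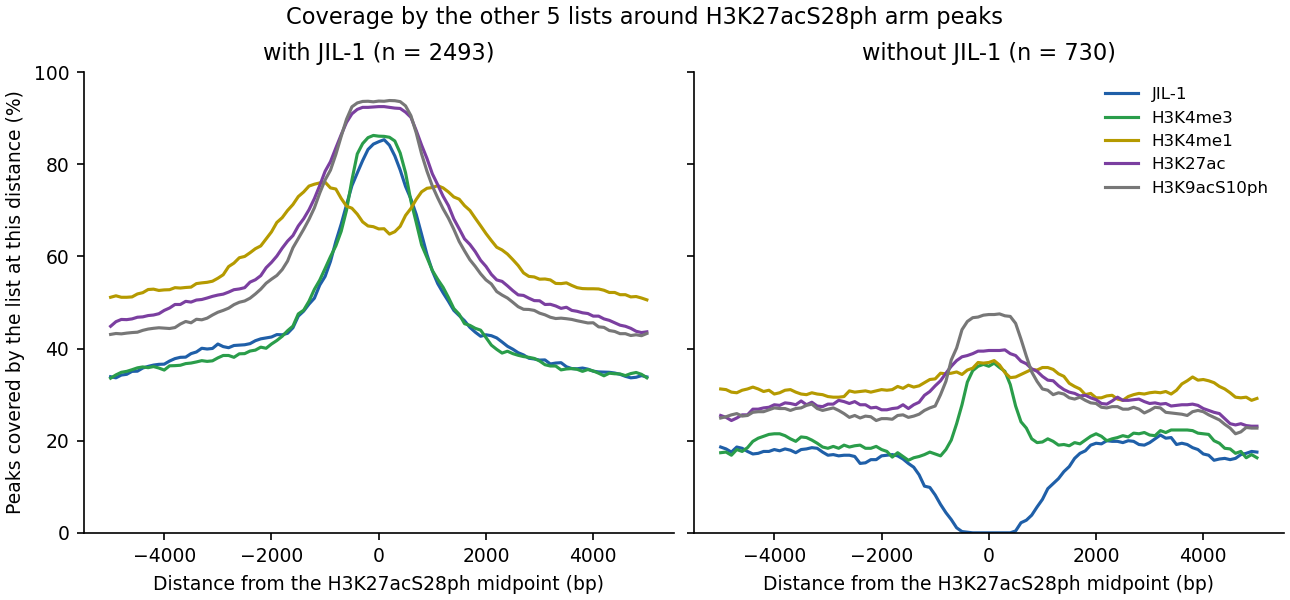
Coverage by the other 5 lists (y axis, percent of H3K27acS28ph arm peaks) at each distance from the H3K27acS28ph midpoint (x axis, bp, in genome orientation), for peaks with JIL-1 (left) and without it (right). With JIL-1, H3K4me1 dips to 66.0% at the midpoint while H3K9acS10ph stands at 93.7%. Without JIL-1 the JIL-1 line is 0 at the midpoint by definition and H3K9acS10ph stands at 47.4%.

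Peaks without a partner differed between the 2 lists in their gaps and widths. Unpartnered JIL-1 peaks lay far from the mark, with a median gap of 11992 bp to the nearest H3K27acS28ph peak, and 54.2% of them had a gap over 10000 bp. Unpartnered H3K27acS28ph peaks lay closer to the kinase, with a median gap of 2664 bp, and 32.3% of them had a JIL-1 peak less than 1000 bp away. A gap depends on the length of the list it is measured to, here 12295 JIL-1 peaks and 3223 H3K27acS28ph peaks. Gaps were not recomputed with lists of equal length, so their difference does not separate the peaks from the list lengths. Among the 730 of them, 291 (39.9%, 36.4 to 43.5) overlapped none of the other 5 lists and 189 (25.9%) overlapped all 4 other marks. The 291 were of mixed width, with a median of 1766 bp and quartiles of 1058 and 3339 bp, against 1089 and 2033 bp for the whole list. Of them, 36 fell in the narrowest decile of the list and 85 in the widest. The 2907 JIL-1 peaks outside all other lists were narrow, with a median of 742 bp and an upper quartile of 970 bp.

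The contrast was large among the widest H3K27acS28ph peaks. The widest decile had 207 peaks with JIL-1 and 115 without. Those with JIL-1 overlapped H3K4me3 in 91.3%, H3K4me1 in 95.7%, H3K27ac in 96.1% and H3K9acS10ph in 82.6% of cases. Those without JIL-1 did so in 10.4%, 22.6%, 12.2% and 13.0%, and 85 of the 115 (73.9%) overlapped none of the 4. Their scores were not low, with a median of 384 against 491 for those with JIL-1 and 141 for the whole list, and they were wider still, with a median of 5610 bp against 3456 bp. Of the 93 arm peaks wider than 5000 bp, 28 had JIL-1 and 65 did not, and 47 of the 65 overlapped no other list. When only H3K27acS28ph peaks with any of the other 4 marks were kept, a restriction chosen after these values were seen, the share with JIL-1 was 87.1% among those in the widest decile of the whole list (82.2 to 90.8), against 70.9% among those in the narrowest (65.3 to 75.9).

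Both the strongest and the most distant unpartnered H3K27acS28ph peaks lay outside the other lists. The highest-scoring H3K27acS28ph peaks without JIL-1 lay on X from 445174 to 453276 (8103 bp, score 2331), on 3L from 9069768 to 9078051 (8284 bp, score 2307) and on 3L from 4327913 to 4336554 (8642 bp, score 2265). They overlapped no other list, and their nearest JIL-1 peaks lay 2249, 9504 and 8375 bp away. The H3K27acS28ph peaks farthest from any JIL-1 peak were near each other on X, in a single stretch without JIL-1 peaks. They lay from 21675657 to 21676760, from 21664460 to 21666411 and from 21611015 to 21612004, at gaps of 167806, 161692 and 108247 bp. These had scores of 62.9, 155 and 63.8, against a median of 141 for the list, and likewise overlapped no other list.

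Among the large arms, 2L had the lowest share in both lists. JIL-1 peaks had H3K27acS28ph in 18.7% of cases on 2L (17.0 to 20.5), 21.5% on 3L, 22.6% on 3R, 23.2% on 2R and 24.1% on X (22.4 to 25.9). H3K27acS28ph peaks had JIL-1 in 70.3% on 2L (66.0 to 74.3), 76.2% on X, 77.5% on 3L, 80.7% on 3R and 80.7% on 2R (77.4 to 83.6). The intervals of 2L lay below those of 2R and 3R in both lists. They overlapped those of 3L in both lists, and that of X for H3K27acS28ph (72.8 to 79.3). On 2L, 13.2% of H3K27acS28ph peaks overlapped no other list (10.5 to 16.6), against 7.03% on 3R (5.44 to 9.04) and 7.22% on 2R (5.46 to 9.50). The value was 7.87% on 3L (6.05 to 10.2) and 10.7% on X (8.55 to 13.3), and both of these were below 2L. The X interval overlapped that of 2L, although X had the highest share for JIL-1. The part of these peaks in the lower share on 2L was not tested. Chromosome 4 had the lowest shares, with 8 of 82 JIL-1 peaks (9.76%, 5.03 to 18.1) and 8 of 20 H3K27acS28ph peaks (40.0%, 21.9 to 61.3), numbers too small for a finer comparison.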

How the data were processed

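Kc167 chromatin was fixed, sonicated to 200 to 1000 bp and immunoprecipitated, and libraries were selected for 200 to 300 bp, per the labels' protocols. Per the submitters' processing notes, alignment used Bowtie 0.12.5. The authors deposited 1 list of peaks per library, giving each peak's score and both its ends. Peak names carry the name MACS. Its settings, the build and whether an input was used are not stated in the labels or files. What the deposited score measures is not stated in the files. Starts and ends are another kind of value, positions in bp, and 2 deposited H3K27acS28ph starts lay below 0, none of them on the arms. Scaffolds are named as in release 5 and the gene annotation belongs to release 6, so genes and sequences were not used here.

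Overlap meant at least 1 shared bp, and distances ran between nearest midpoints on a scaffold. Shares have Wilson, differences Newcombe and medians order-statistic 95% intervals. Deciles and classes were made by rank on the arms, with ties in score broken by width and ties in width by score. The arm length is the sum of the largest peak ends. The regions named are up to 3 of each kind by a fixed rule on contacts, score ranks or gaps. The members and lists were chosen with earlier results of these data known. Alternatives tried were sharing 50% of the shorter peak, 1000 bp windows, JIL-1 reduced to 3223 peaks and all scaffolds. The limit to peaks with any of the other 4 marks and the crossed classes of score and width were added after the data were seen. Functions were tested on simulated data (pandas 2.3.3, scipy 1.17.1, numpy 2.4.6 under Python 3.11.15).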

Additional observations from a re-analysis of the deposited data

How the results depend on the processing

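Of 94 values recomputed under an alternative, 25 stayed within the original interval, 67 moved outside it in the same direction or from a value whose interval held 0, and 2 reversed. The mark contrasts stayed positive under every alternative run, and the cause of the shifts was not tested. Requiring 50% of the shorter peak gave partner shares of 18.4% for JIL-1 and 70.5% for H3K27acS28ph, a mean of 0.74 JIL-1 peaks per H3K27acS28ph peak and an H3K27acS28ph score difference between highest and lowest decile of 28.7 points. The contrasts for H3K4me3, H3K4me1, H3K27ac and H3K9acS10ph were then 51.9, 24.3, 53.4 and 51.4 points at JIL-1 and 46.7, 23.9, 43.3 and 37.4 points at H3K27acS28ph peaks. With 1000 bp windows the shares were 17.8% and 65.3%, the mean was 0.69, and the decile differences were 22.4 (score) and 38.7 (width) points for JIL-1 and 11.04 and -18.5 points for H3K27acS28ph. The contrasts in the same order were 45.2, 16.3, 29.6 and 36.2 points at JIL-1 and 40.0, 17.5, 28.1 and 31.8 points at H3K27acS28ph peaks. With JIL-1 reduced to 3223 peaks the shares were 37.8% and 42.2%, the mean was 0.44, and median distances were 4771 bp from JIL-1 and 3135 bp from H3K27acS28ph. The decile differences were then -5.48 (score, reversed in sign) and 63.4 (width) points for JIL-1 and 32.7 and 15.0 points for H3K27acS28ph. The reversed value has an interval that holds 0 (-12.6 to 1.77), and its deciles span only the highest JIL-1 scores, unlike those of the full list. The contrasts were 39.9, 17.4, 34.5 and 34.5 points at JIL-1 and 26.4, 24.7, 28.7 and 19.7 points at H3K27acS28ph peaks. Over all scaffolds, where U and Uextra add 2280 H3K27acS28ph peaks, 44.9% of the whole H3K27acS28ph list had JIL-1, with a mean of 0.54, a median distance of 3139 bp, decile differences of -14.0 (score, reversed) and 32.4 (width) points, and contrasts of 81.0, 82.0, 83.5 and 82.1 points. Counting only peaks with any of the other 4 marks gave shares of 28.7% and 84.9% and width differences of 50.8 points for JIL-1 and 18.2 points for H3K27acS28ph. No paired analysis was possible because each antibody had 1 library. For the same reason no difference was set against variation between preparations, and the unknown depth gives no measure of how many sites went uncalled in either list. JIL-1 had more called peaks than H3K27acS28ph, and the shares moved when the JIL-1 list was reduced by score. That cut changed list length and peak score together, and the H3K27acS28ph list was not shortened.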

Other observations

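Outside the arms the shares differed between the scaffold collections. On U and Uextra, 3 of 21 JIL-1 peaks had H3K27acS28ph, and 3 of 2280 H3K27acS28ph peaks had JIL-1 (0.13%, 95% Wilson interval 0.045 to 0.39). The H3K27acS28ph peaks there had a median score of 172, against 141 on the arms, and a median width of 1130 bp. On the assembled heterochromatin scaffolds, 35 of 101 JIL-1 peaks had H3K27acS28ph (34.7%, 26.1 to 44.3) and 32 of 131 H3K27acS28ph peaks had JIL-1 (24.4%, 17.9 to 32.4).

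A small set of shared peaks stood outside the active marks. The 24 JIL-1 arm peaks that had H3K27acS28ph and none of the other 4 marks had a median width of 806 bp and a median score of 148, against 742 bp and 79.5 for the 2907 with no other list.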
